A study of Homo sapiens with 6 samples.

Results

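Matrix metalloproteinases (MMPs) and their tissue inhibitors, the TIMPs, were described in HCC827 cells, a cell line established from a lung adenocarcinoma that carries an activating deletion in EGFR. The 10 genes were MMP1, MMP2, MMP7, MMP9, MMP10, MMP13, MMP14, TIMP1, TIMP2 and TIMP3, which are 7 proteases and 3 inhibitors out of 18033 genes on the array. The 10 genes were selected on earlier results of these arrays, in which the signal of MMP13 in 3D against 2D stood out, and they were set around it as its family and its inhibitors. Each gene was represented by the probe set, of those annotated with its symbol, that had the highest mean signal over all arrays. For 9 of the 10 genes this probe set carried no other symbol, whereas that of TIMP3 is shared with SYN3. RNA was hybridised to 6 Affymetrix human exon arrays, 3 of 3D cultures and 3 of 2D cultures grown without coating, all in the same medium and without any drug named in the labels. The 3D cultures were hanging drop spheroids that the labels describe as embedded into Matrigel, a basement membrane extract, and their coating is marked MC, a term the labels do not spell out. The paper describes an embedding matrix of Matrigel mixed with collagen type I and growth medium. In its account of the arrays the paper calls the 3D cultures spheroids and names no matrix, whereas it calls embedded spheroids organoids. The labels, which are followed here, name embedding, and the paper does not settle the difference in terms. Contact with added collagen type I is therefore possible and not stated. By the labels, dimensionality and embedding change together in this design and cannot be told apart. The labels do not say that replicates came from separate cultures, so every p-value here reflects the spread among these arrays alone, and that spread may be technical.

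MMPs are zinc-dependent proteases that are made as inactive precursors and cleave proteins of the extracellular matrix, growth factors and cell surface proteins. TIMPs bind the active site of MMPs one to one and block it, and many MMP genes respond to AP-1 and ETS transcription factors downstream of growth factor and cytokine signals. In lung tissue most MMPs are made at low levels by epithelium at rest and at higher levels during repair, inflammation and tumour growth.

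The values were log2 signals of 22011 probe sets and had practically the same distribution on every array, with a median of 6.26. Pearson's r over the probe sets, which do not serve as independent replicates, was 0.956 to 0.974 within 3D, 0.943 to 0.975 across the groups and 0.980 to 0.987 within 2D. On the first principal component, with 43.1% of the variance, 3D replicate 2 stood apart at 58.8, and the other arrays lay between -37.2 and 22.8. Values that rest on this array are therefore also given without it. All 11 epithelial markers were bright, with group means between percentiles 68.2 and 95.5 of all probe sets in 3D and between 78.0 and 97.2 in 2D. Their summed log2 signal was 98.1 to 99.96 in the 3D arrays and 104.8 to 106.0 in the 2D arrays. Of the 11, 0 were called (0.382% of all probe sets) and 7 were lower at an unadjusted p under 0.05. At that level 7.94% of all probe sets were lower and 7.17% higher. All 11 had a log2 difference below 0, with a median of -0.67. In 8 of them every 3D array lay below every 2D array, against 10% of all probe sets. Without 3D replicate 2 this held for 10, against 16.6%. Markers of fibroblasts, leukocytes and endothelium had 0 genes called of 10, 9 and 7, and before adjustment only 2 leukocyte markers were higher at p under 0.05. Their summed log2 signals were 52.06 to 53.69, 50.01 to 52.98 and 37.74 to 39.24 in the 3D arrays and 50.17 to 51.82, 48.66 to 49.09 and 37.69 to 37.89 in the 2D arrays. Their group means lay between percentiles 6.77 and 59.95 in 3D and 6.00 and 53.3 in 2D for fibroblasts, 7.94 and 93.5 in 3D and 7.15 and 94.1 in 2D for leukocytes, and 12.5 and 76.5 in 3D and 12.3 and 68.4 in 2D for endothelium. The following markers were named after their values were seen. FAP, PTPRC and PECAM1 were dim, at percentiles 7.15, 7.94 and 17.7 in 3D and at 6.00, 7.15 and 18.6 in 2D. The brightest fibroblast marker was COL1A1, at percentile 59.95 in 3D and 53.3 in 2D. CD68, a lysosomal protein of many cell types, was the brightest leukocyte marker and CLDN5 the brightest endothelial one. The 2 higher leukocyte markers were CD14 (log2 difference 0.71, adjusted p = 0.144) and CSF1R (0.43, adjusted p = 0.297). Whether the lower epithelial or the higher fibroblast and leukocyte sums bear on the protease genes was not tested.

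MMP13, a collagenase that cleaves fibrillar collagen and is known from cartilage and invasive carcinomas, stood out among the 10 genes. Its log2 signal was 7.23, 7.03 and 7.08 in the 3D arrays and 5.19, 4.48 and 4.82 in the 2D arrays. The lowest 3D array lay well above the highest 2D array, and the 3D arrays were close to each other, while the 2D arrays were more spread. The group means were 7.11 ± 0.10 in 3D and 4.83 ± 0.36 in 2D (SD, n = 3 each). The log2 difference, 3D minus 2D, was 2.28 (standard error 0.20), which is a 4.87-fold higher signal in 3D (95% interval 3.50 to 6.76). The gene moved to percentile 69.0 of all probe sets in 3D, against percentile 21.5 in 2D. With the signed differences ordered from the most upward to the most downward, MMP13 ranked 11 among the 22011 probe sets. In the same order it ranked 7 among the 32 called higher in 3D (limma, Benjamini-Hochberg adjusted p under 0.05). Its adjusted p was 0.015. MMP13 was picked for description with this difference known, so the adjusted p describes its place in the fit and is no independent test. In bulk RNA, more cells with the transcript and more transcript per cell cannot be told apart.

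The difference in MMP13 lay between 2.11 and 2.46 when each array was left out in turn. Its adjusted p stayed under the threshold without 3D replicate 2 (0.0159) and without 3D replicate 3 (0.0213). It was 0.0693 without 3D replicate 1, and 0.123, 0.0759 and 0.109 without 2D replicates 1, 2 and 3. With any of the 2D arrays removed, 0 probe sets of the whole table were called by limma, with 1812 to 3100 at an unadjusted p under 0.05, so every probe set lost its call there. The table holds no call of signal against background, and the fold of MMP13 rests on a dim 2D signal.

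**Figure D1:**
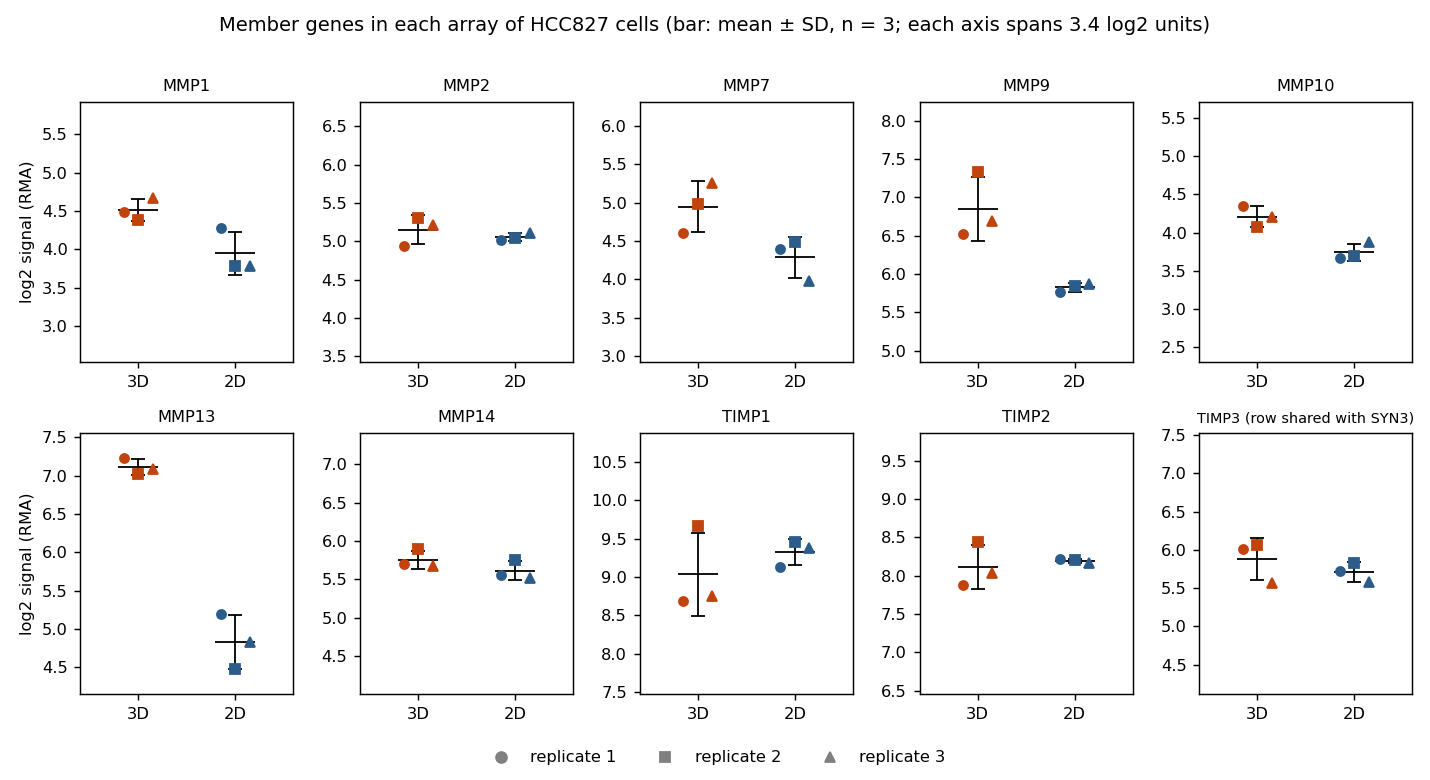
Log2 signal of each of the 10 genes by array, with the 3D arrays left of the 2D arrays and the bar at the mean ± SD of 3 arrays. The 3D arrays of MMP13 lie between 7.03 and 7.23, above all its 2D arrays at 4.48 to 5.19, while the arrays of MMP2, MMP14 and the TIMPs overlap.

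The gelatinases MMP9 and MMP2, which cleave denatured collagen and basement membrane collagen, differed from each other in their values. MMP9 had a log2 signal of 6.53, 7.33 and 6.69 in the 3D arrays and 5.77, 5.84 and 5.87 in the 2D arrays. All 3D arrays lay above all 2D arrays, as in 12.7% of all probe sets, with 3D replicate 2 the highest by a wide margin. The log2 difference was 1.02 (standard error 0.22), a ratio of 2.03 (95% interval 1.42 to 2.91), which missed the threshold in limma (adjusted p = 0.113). Without 3D replicate 2 it was 0.78 (adjusted p = 0.0755). With arrays weighted by their quality it was 0.88 and passed (adjusted p = 0.0498). The weighted fit called 415 probe sets of the whole table, against 84 in the unweighted fit. That larger count also stands behind every later value given with array weights. MMP2 had 4.94, 5.30 and 5.22 in the 3D arrays and 5.02, 5.04 and 5.11 in the 2D arrays. These groups overlapped, and the difference of 0.10 (95% interval -0.27 to 0.46, adjusted p = 0.786) was 0.023 without 3D replicate 2.

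MMP7 or matrilysin, a small protease made by epithelial cells, had a log2 signal of 4.60, 4.99 and 5.26 in the 3D arrays and 4.40, 4.48 and 3.97 in the 2D arrays. MMP1, the interstitial collagenase, had 4.48, 4.38 and 4.67 in the 3D arrays and 4.28, 3.78 and 3.78 in the 2D arrays. MMP10 or stromelysin 2, which cleaves proteoglycans and fibronectin and can activate other MMPs, had 4.35, 4.07 and 4.20 in the 3D arrays and 3.66, 3.70 and 3.87 in the 2D arrays. In all 3 genes the 3D arrays lay above the 2D arrays without overlap, by gaps much smaller than that of MMP13. Such an order of the arrays was also seen in 12.7% of all probe sets. The log2 differences were 0.66 for MMP7 (standard error 0.22, adjusted p = 0.247), 0.57 for MMP1 (standard error 0.19, adjusted p = 0.244) and 0.46 for MMP10 (standard error 0.15, adjusted p = 0.242). None of the 3 passed the test with all arrays or with any array left out. They were dim genes, with 3D means at percentiles 23.1, 16.7 and 12.98 and 2D means at 14.2, 10.3 and 8.43. Without 3D replicate 2 the differences were 0.64, 0.63 and 0.53.

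MMP14, a membrane-bound collagenase that activates the precursor of MMP2 at the cell surface, had 5.70, 5.89 and 5.67 in the 3D arrays and 5.56, 5.75 and 5.52 in the 2D arrays. The groups overlapped, and within each group replicate 2 was the highest. Its log2 difference was 0.15 (standard error 0.15, 95% interval -0.21 to 0.50, adjusted p = 0.66), and 0.077 without 3D replicate 2.

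The inhibitor genes TIMP1, TIMP2 and TIMP3 had 0 of 3 called by limma, and 0 at an unadjusted p under 0.05. Over all probe sets 0.382% were called, and before adjustment 7.17% were higher and 7.94% lower, so nothing is read from 0 of 3. TIMP1, a secreted inhibitor of most MMPs, had a log2 signal of 8.69, 9.66 and 8.75 in the 3D arrays and 9.13, 9.45 and 9.38 in the 2D arrays. Its 3D replicate 2 was the highest of all arrays and the other 3D arrays were below every 2D array. The log2 difference was -0.29 (standard error 0.27, 95% interval -0.92 to 0.34, adjusted p = 0.622), and -0.60 without 3D replicate 2 (adjusted p = 0.151). TIMP2, which inhibits MMPs and also takes part in the activation of the MMP2 precursor by MMP14, had 7.88, 8.43 and 8.03 in the 3D arrays and 8.22, 8.20 and 8.16 in the 2D arrays. Again 3D replicate 2 lay above and the other 3D arrays below all 2D arrays. The log2 difference was -0.077 (standard error 0.18, 95% interval -0.49 to 0.34, adjusted p = 0.855), with -0.24 without 3D replicate 2 and 0.041 without 3D replicate 1.

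TIMP3, the matrix-bound inhibitor that also blocks ADAM proteases, was read by 2 probe sets that pointed in opposite directions. The brighter one, shared with SYN3, had 6.01, 6.07 and 5.57 in the 3D arrays and 5.73, 5.83 and 5.58 in the 2D arrays, and the groups overlapped (log2 difference 0.17 with a standard error of 0.18, adjusted p = 0.667). Leaving out 3D replicate 2 gave 0.079, and leaving out 3D replicate 3 gave 0.33. A further probe set, annotated with TIMP3 alone, had 5.40, 5.26 and 5.43 in the 3D arrays and 5.49, 5.44 and 5.49 in the 2D arrays. There every 3D array lay below every 2D array, as in 10% of all probe sets, by -0.11 on the log2 scale (standard error 0.14, adjusted p = 0.729). In the RefSeq annotation TIMP3 lies inside SYN3 and TIMP1 inside SYN1. Whether probes of these genes also read the host transcripts was not tested.

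**Figure D2:**
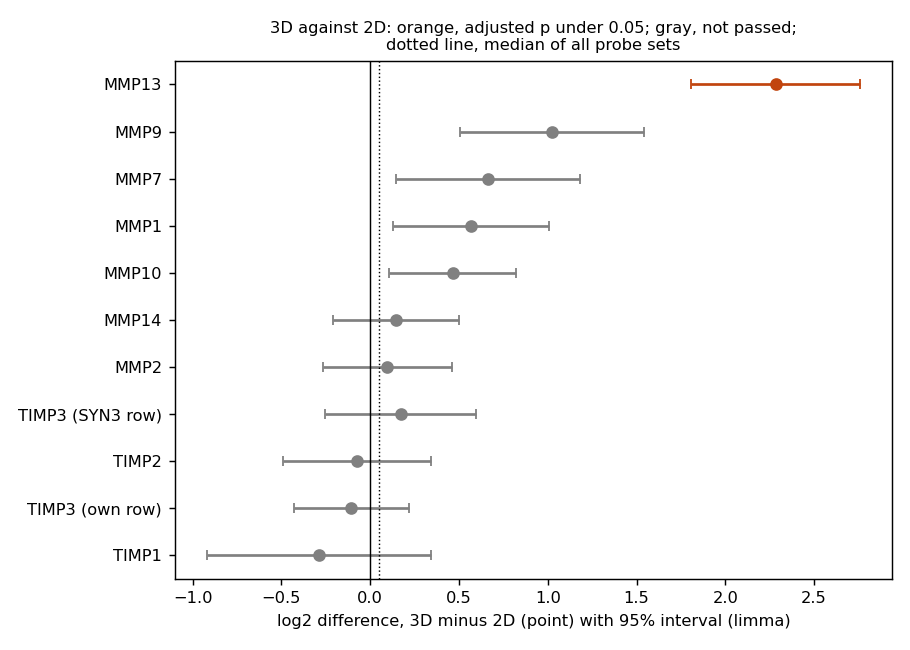
Log2 difference, 3D minus 2D, of each of the 10 genes with its 95% interval from limma, with both TIMP3 probe sets shown. MMP13 at 2.28 is the 1 gene past an adjusted p of 0.05, and the intervals of MMP14, MMP2 and all TIMP probe sets include 0.

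Of the 10 genes, 1 was called higher in 3D, 0 were called lower and 9 did not pass the test, while before adjustment 5 were higher and 0 lower at p under 0.05. Over all probe sets 0.382% were called, with 0.145% higher and 0.236% lower, and before adjustment 7.17% were higher and 7.94% lower. Since the genes were chosen with MMP13's difference known, nothing is read from these counts. All 7 MMP genes had a difference above 0, as did 12449 of the 22011 probe sets. The median was 0.57 for the MMP genes and -0.077 for the 3 TIMP genes, while the median over all probe sets was 0.052. For TIMP3 the probe set shared with SYN3 was used (0.17), and its own probe set had -0.11. Every 3D array lay above every 2D array for 5 of the 10 genes, all of them MMPs, against 12.7% of all probe sets. The reverse was seen for 0 of 10, against 10% of all probe sets. Without 3D replicate 2 the count of genes with all 3D arrays above remained 5, against 19.1% of all probe sets, and TIMP1 and TIMP2 then had all 3D arrays below, against 16.6%.

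Signal differences leaned upwards among dim probe sets in general. In the lowest 25% of mean signal, which held MMP1, MMP7 and MMP10, the median difference of all probe sets was 0.081 and 61.5% lay above 0. In the highest 25%, which held TIMP1 and TIMP2, the median was -0.0024 and 49.6% lay above 0. Every 3D array lay above every 2D array for 13.4% of the probe sets in the lowest 25% and for 14.4% in the highest 25%. The differences of MMP1, MMP7 and MMP10 were larger than the median of the lowest 25%, and the part of the signal level in them was not tested.

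**Figure D3:**
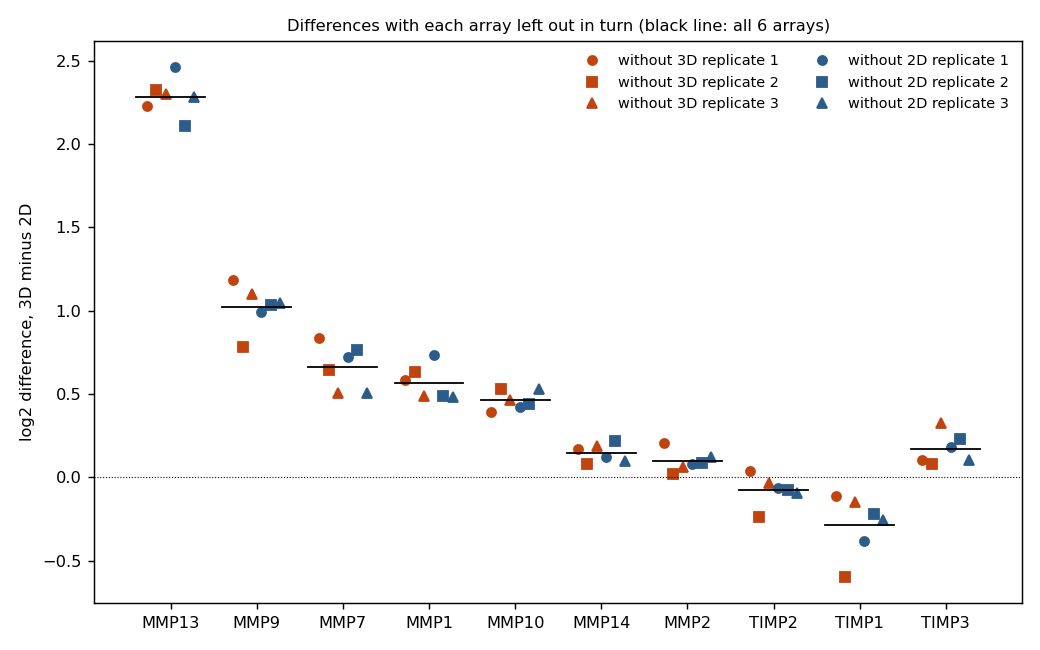
Log2 difference, 3D minus 2D, of each of the 10 genes with each array left out in turn, where colour and shape give the array left out and the black line is the value from all 6 arrays. MMP13 stays between 2.11 and 2.46, and TIMP1 ranges from -0.60 without 3D replicate 2 to -0.11.

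MMP13, MMP1, MMP7 and MMP10 lie on chromosome 11 in a cluster that holds 9 MMP genes and no other protein-coding gene in the RefSeq annotation. The order along the chromosome is MMP7, MMP20, MMP27, MMP8, MMP10, MMP1, MMP3, MMP12 and MMP13, so that MMP13 is at one end and MMP7 at the other. Of these 9 genes 1 was called higher and 0 lower (0.145% and 0.236% of all probe sets), and 4 were higher at an unadjusted p under 0.05, against 7.17% of all probe sets. For 3 other genes of the cluster, named after their values were seen, the log2 differences were 0.14 for MMP20, the enamel protease, -0.031 for MMP27 and 0.18 for MMP8, the collagenase of neutrophils. MMP3 or stromelysin 1 had 0.32 (standard error 0.19, adjusted p = 0.442) with overlapping arrays. MMP12, the elastase of macrophages and the closest neighbour of MMP13, had 0.31 (standard error 0.15, adjusted p = 0.362), and its 3D arrays at 4.05, 3.87 and 4.002 lay above its 2D arrays at 3.78, 3.62 and 3.60. All 9 genes had a 2D mean below percentile 25 of all probe sets, and MMP13 was the 1 gene of the cluster whose 3D mean did not stay there.

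**Figure D4:**
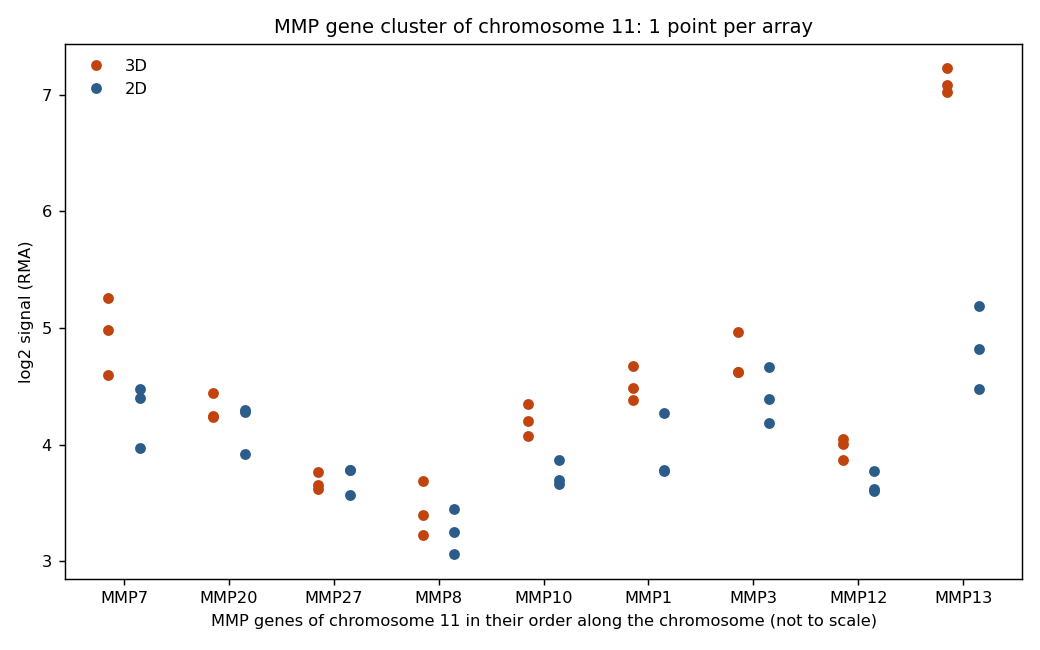
Log2 signal on each array of the 9 MMP genes of the chromosome 11 cluster, in their order along the chromosome, with the 3D arrays left of the 2D arrays. MMP13 at the right end reaches 7.03 to 7.23 in 3D, while its neighbour MMP12 is at 3.87 to 4.05 in 3D.

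Promoter sequence from RefSeq (GRCh38.p14) was at hand for 5 of the 10 genes, MMP7, MMP10, MMP14, TIMP1 and TIMP3, and not for MMP1, MMP2, MMP9, MMP13 and TIMP2. The 250 bases before the transcription start were searched on both strands for the AP-1 motif TGAGTCA, which reads TGACTCA on the other strand, found in 4.20% of 35116 promoters, and for the TATA motif TATAAA, which reads TTTATA on the other strand, found in 10.7%. The motifs share no overlap in the sequences printed. The window of MMP7 (chr11:102530748-102530997, minus strand) held both, with AP-1 starting 67 bases and TATA 30 bases before the start. The window of MMP10 (chr11:102780629-102780878, minus strand) held TATA 31 bases before the start and no AP-1 match. Those of MMP14 (chr14:22836335-22836584, plus strand), TIMP1 and TIMP3 held neither. MMP7 and MMP10 are shown as genes of the cluster whose 3D and 2D arrays did not overlap, and MMP14 as an MMP gene outside the cluster whose arrays did, 5′ to 3′ on the gene's strand with matches in capitals. A match is a stretch of letters and not a binding site shown in these cells.
MMP7: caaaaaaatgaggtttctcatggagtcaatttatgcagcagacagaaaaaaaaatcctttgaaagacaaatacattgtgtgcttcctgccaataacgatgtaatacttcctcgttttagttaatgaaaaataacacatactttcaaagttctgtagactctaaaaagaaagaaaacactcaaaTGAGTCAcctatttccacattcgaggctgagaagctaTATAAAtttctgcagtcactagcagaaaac
MMP10: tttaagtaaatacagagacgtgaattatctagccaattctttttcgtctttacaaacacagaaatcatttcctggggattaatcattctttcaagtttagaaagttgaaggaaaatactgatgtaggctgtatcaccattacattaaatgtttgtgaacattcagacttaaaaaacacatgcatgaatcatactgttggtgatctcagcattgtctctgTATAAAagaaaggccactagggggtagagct
MMP14: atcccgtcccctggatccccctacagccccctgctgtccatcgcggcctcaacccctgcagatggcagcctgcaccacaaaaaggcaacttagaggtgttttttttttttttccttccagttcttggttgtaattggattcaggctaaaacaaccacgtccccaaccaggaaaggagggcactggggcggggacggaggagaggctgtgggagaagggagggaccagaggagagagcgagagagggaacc

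In the rest of the MMP family, the other cluster genes included, 0 genes were called. The 17 other MMP genes measured were read by 16 probe sets, since MMP23A and MMP23B share one. Of these 0 passed limma in either direction, and the median difference was 0.16. At an unadjusted p under 0.05, 1 was higher and 0 were lower, against 7.17% and 7.94% of all probe sets. The 1 gene was MMP16, a membrane-bound MMP with a difference of 0.35 (adjusted p = 0.32), which was picked out for this value. Of 5 inhibitors outside the member TIMPs 0 were called, and at an unadjusted p under 0.05 also 0. RECK, a membrane-anchored inhibitor of MMPs, had a log2 signal of 5.41, 5.03 and 5.47 in the 3D arrays and 5.94, 5.63 and 5.60 in the 2D arrays, all 3D arrays below all 2D arrays. Its difference of -0.42 (standard error 0.18) did not pass (adjusted p = 0.333) and was -0.29 without 3D replicate 2. TIMP4, the least widely expressed TIMP, had 0.081 (adjusted p = 0.837) and -0.016 without 3D replicate 2.

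Proteases that cut MMP precursors, directly or through plasmin, had 0 of 13 called, 0 at an unadjusted p under 0.05 and a median of 0.072. PLAU, the urokinase that generates plasmin, had 7.61, 8.58 and 8.08 in the 3D arrays and 8.61, 8.65 and 8.57 in the 2D arrays. The groups overlapped only through 3D replicate 2, and the difference of -0.52 (adjusted p = 0.358) was -0.77 without it (adjusted p = 0.125). FURIN, the convertase that activates MMP14 inside the cell, had 0.20 (adjusted p = 0.643) and practically no difference without 3D replicate 2 (0.00015). Surface partners of MMPs, such as inducers and collagen receptors, had 0 of 12 called, and before adjustment 1 was higher and 1 lower at p under 0.05 (7.17% and 7.94% over all probe sets). The lower one, named after its value was seen, was a probe set annotated with 5 symbols, the collagen receptor DDR2 among them. BSG, a surface protein known to induce MMPs in neighbouring cells, had 0.14 (adjusted p = 0.802), and -0.12 without 3D replicate 2.

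Other protease families had 0 genes called in the unweighted fit of all arrays. The counts of probe sets were 11 for ADAM proteases, 18 for ADAMTS proteases, 14 for cathepsins and 18 for epithelial serine proteases. At an unadjusted p under 0.05, 3 ADAM genes were higher and 2 lower, 0 ADAMTS genes were higher and 3 lower, 2 cathepsins were higher and 0 lower, and 2 serine proteases were higher and 1 lower, against 7.17% higher and 7.94% lower over all probe sets. The medians lay between 0.029 for cathepsins and 0.14 for serine proteases. The genes named next were chosen after their values were seen. ADAM9, a sheddase of surface proteins, had a log2 signal of 10.55, 10.61 and 10.50 in the 3D arrays and 11.31, 11.18 and 11.24 in the 2D arrays, with all 3D arrays below (difference -0.69, adjusted p = 0.097, and 0.0407 with array weights). CTSL, a lysosomal cysteine protease whose probe set is shared with CTSLP8, had 8.47, 8.54 and 8.49 in the 3D arrays and 8.09, 7.72 and 7.91 in the 2D arrays, with all 3D arrays above (difference 0.59, adjusted p = 0.166). ADAM28 and the kallikrein gene KLK6 changed call with 3D replicate 2. ADAM28 had 6.56, 5.56 and 7.10 in the 3D arrays and 5.57, 5.22 and 5.15 in the 2D arrays, a difference of 1.09 (adjusted p = 0.242) that was 1.52 without that array (adjusted p = 0.0481). KLK6 had 6.96, 7.76 and 6.69 in the 3D arrays and 8.35, 8.51 and 8.50 in the 2D arrays, a difference of -1.31 (adjusted p = 0.102) that was -1.63 without it (adjusted p = 0.0159) and -1.46 with array weights (adjusted p = 0.0194). Without 3D replicate 2, 0.327% of all probe sets were called higher and 0.354% lower.

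Inhibitors of these families also had 0 genes called in the unweighted fit of all arrays, out of 10 probe sets for cystatins and 17 for inhibitors of serine proteases. At an unadjusted p under 0.05, 0 cystatins were higher and 1 lower, and 4 serine protease inhibitors were higher and 2 lower, against the same shares over all probe sets. The following were again chosen after their values were seen. CST6, a cystatin that blocks lysosomal cysteine proteases, had 6.36, 6.58 and 6.67 in the 3D arrays and 7.60, 7.56 and 7.40 in the 2D arrays, with all 3D arrays below (difference -0.98, standard error 0.16, adjusted p = 0.0595). It passed with array weights (adjusted p = 0.0266) and with dim probe sets left out (adjusted p = 0.0337). SERPINA1, the inhibitor of neutrophil elastase, whose probe set is shared with SERPINA2, had 8.03, 8.001 and 7.95 in the 3D arrays and 7.28, 7.12 and 7.29 in the 2D arrays, with all 3D arrays above (difference 0.76, adjusted p = 0.0793, and 0.0409 with array weights). SPINK1, a trypsin inhibitor, had 6.83, 3.94 and 7.22 in the 3D arrays and 4.43, 4.24 and 3.92 in the 2D arrays. Its 3D replicate 2 lay with the 2D arrays, and the difference was 1.80 with it (adjusted p = 0.324) and 2.83 without it (adjusted p = 0.00813).

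Matrix proteins that MMPs cleave had 0 of 15 called in the unweighted fit, 3 that were higher and 0 that were lower at p under 0.05 before adjustment (7.17% and 7.94% over all probe sets), and a median of 0.17. FN1 or fibronectin, chosen after its values were seen, had 9.61, 9.87 and 9.92 in the 3D arrays and 8.80, 8.86 and 8.93 in the 2D arrays, with all 3D arrays above (difference 0.93, standard error 0.15, adjusted p = 0.0636). It passed with array weights (adjusted p = 0.0314) and with dim probe sets left out (adjusted p = 0.0355).

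Transcription factors known to bind MMP promoters had 0 of 23 called in the unweighted fit, 2 that were higher and 3 that were lower at p under 0.05 before adjustment (7.17% and 7.94% over all probe sets), and a median of 0.057. The AP-1 genes FOS, JUN and FOSL1 had log2 differences of 0.19 (adjusted p = 0.683), 0.36 (adjusted p = 0.341) and -0.035 (adjusted p = 0.949). JUN had 7.35, 6.98 and 7.35 in the 3D arrays and 6.89, 6.88 and 6.82 in the 2D arrays, all 3D arrays above, while the arrays of FOS and FOSL1 overlapped. Without 3D replicate 2 the differences were 0.41 for FOS, whose other 3D arrays lay above its 2D arrays, 0.49 for JUN and -0.14 for FOSL1, and 0 of these 3 passed (adjusted p = 0.223, 0.162 and 0.784). RUNX2, which activates MMP13 in bone and cartilage cells, had means of 7.27 ± 0.21 in 3D and 7.27 ± 0.11 in 2D (SD, n = 3 each, 95% interval of the difference -0.39 to 0.39, adjusted p = 0.999). The ETS gene ETV4 had a difference of -0.14 (adjusted p = 0.731), and -0.31 without 3D replicate 2. Its relatives ETV1 and ETV5, chosen after their values were seen, had all 3D arrays below all 2D arrays. ETV1 had 4.38, 4.57 and 4.85 in the 3D arrays and 5.83, 5.46 and 5.69 in the 2D arrays (difference -1.06, adjusted p = 0.0671, and 0.0268 with array weights). ETV5 had 6.64, 6.15 and 6.96 in the 3D arrays and 7.61, 7.45 and 7.60 in the 2D arrays (difference -0.97, adjusted p = 0.124, and 0.0474 with array weights). Without 3D replicate 2 the difference of ETV5 was -0.75 (adjusted p = 0.112).

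Cytokines and growth factors known to induce MMP genes had 0 of 13 called higher and 1 called lower, against 0.145% and 0.236% of all probe sets. Before adjustment 3 were higher and 2 lower at p under 0.05 (7.17% and 7.94% over all probe sets). The gene called lower was TGFB2, a ligand of the TGF-beta family, with 8.32, 8.15 and 8.29 in the 3D arrays and 9.60, 9.70 and 9.85 in the 2D arrays. All 3D arrays lay below all 2D arrays by more than their spread, and the log2 difference was -1.46 (standard error 0.15, adjusted p = 0.0174). The call held without 3D replicates 2 and 3 and was lost without 3D replicate 1 (adjusted p = 0.0693) and without 2D replicates 1, 2 and 3 (adjusted p = 0.123, 0.0795 and 0.115), while the difference stayed between -1.52 and -1.40. The interleukin 1 genes IL1A and IL1B, chosen after their values were seen, had all 3D arrays above all 2D arrays. The largest difference of the list, 1.55, was that of another gene, which did not pass. IL1A had 7.37, 6.63 and 8.07 in the 3D arrays and 5.75, 5.72 and 6.23 in the 2D arrays (difference 1.46, adjusted p = 0.137), and 1.82 without 3D replicate 2 (adjusted p = 0.0481) and 1.56 with array weights (adjusted p = 0.0439). IL1B had 6.23, 6.28 and 6.56 in the 3D arrays and 5.71, 5.43 and 5.76 in the 2D arrays (difference 0.72, adjusted p = 0.131).

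**Figure D5:**
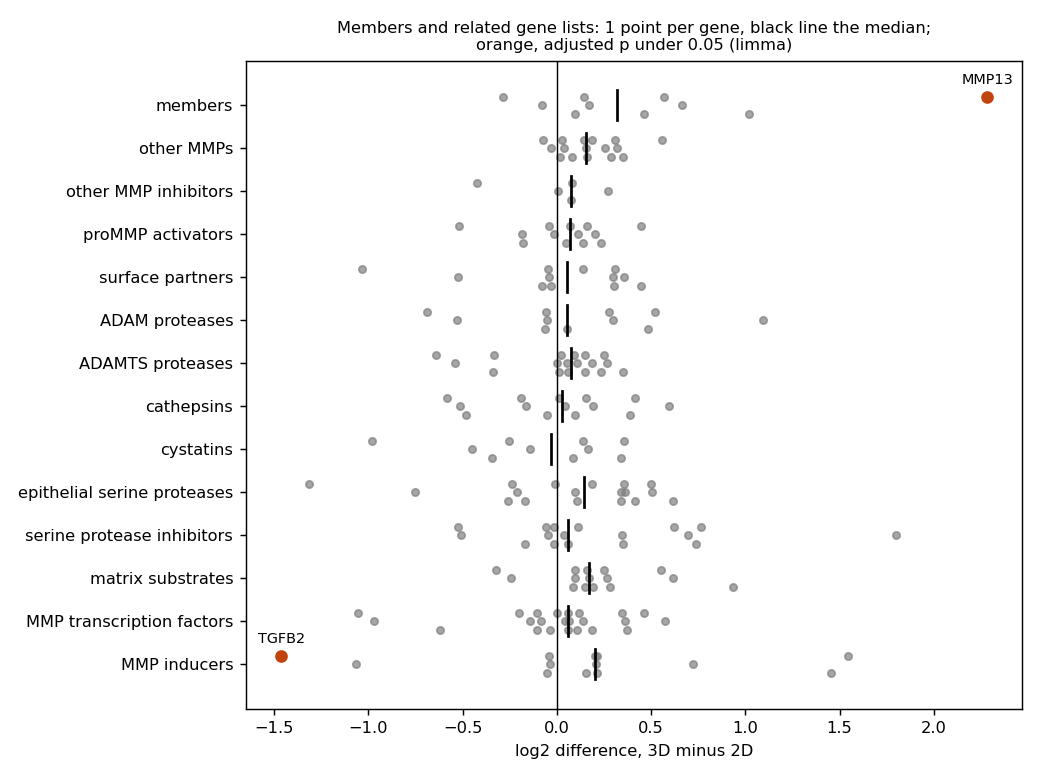
Log2 difference, 3D minus 2D, of the 10 genes in the top row and of the related gene lists below it, with 1 point per probe set and a black line at each median. MMP13 at 2.28 and TGFB2 at -1.46 are the 2 genes past an adjusted p of 0.05 among 195 probe sets.

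The 10 genes and the related lists held 195 probe sets, of which 1 was called higher, MMP13, and 1 lower, TGFB2. With p under 0.05 before adjustment, 26 were higher and 15 lower, which is 5 of 10 higher among the members and 21 higher and 15 lower among the other 185. Over all probe sets 7.17% were higher and 7.94% lower at that level, and 0.145% were called higher and 0.236% lower.

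Among 1072 probe sets with a single symbol and an SD of at least 0.5 over the 6 arrays, the patterns most like that of MMP13 were those of TMX4, SOCS2, B2M, TSPAN12 and TMEM117. Pearson's r with MMP13 over the 6 arrays was 0.996, 0.993, 0.989, 0.987 and 0.979. All 5 had every 3D array above every 2D array, so these values mostly carry the split between the groups, and they were picked as the highest. TMX4 encodes a thioredoxin-related membrane protein of the endoplasmic reticulum, SOCS2 a suppressor of cytokine signalling, and B2M the light chain of MHC class I. Among the members r with MMP13 was 0.905 for MMP10, 0.899 for MMP1, 0.859 for MMP9, 0.761 for MMP7, 0.486 for MMP14 and 0.333 for MMP2. It was 0.413 for TIMP3, -0.262 for TIMP2 and -0.474 for TIMP1. These are descriptions over 6 arrays in 2 groups, which share the same division into 3D and 2D.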

How the data were processed

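HCC827 cells were measured on 6 arrays (3 of 3D, 3 of 2D), and all were used. According to the labels and methods, the authors ran RMA from the package oligo, and the deposited values are log2 signals per transcript cluster, which were used as given. Of 22011 probe sets 14432 carried 1 gene symbol, 2408 several and 5171 none. The sources used here give neither the build behind the array annotation nor versions of RMA and oligo, and RefSeq (GRCh38.p14) served for names, neighbours and promoters only. Depth does not apply to arrays, and the number of arrays limits the precision.

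Group means of 3D and 2D were compared per probe set with limma 3.58.1 in R 4.3.3 (2-sided, Benjamini-Hochberg over all probe sets, threshold 0.05), which was also tested on simulated data. Gene lists were described by counts and medians. The members and lists were chosen with earlier results of these data known. Named were all members, genes past the threshold in each list (at most 3 per direction), 12 genes of the lists whatever their value (RECK, BSG, PLAU, FURIN, FOSL1, FOS, JUN, ETV4, RUNX2, MMP3, MMP12 and TIMP4), and the 5 genes most like MMP13, and other names are marked as chosen after their values were seen. The fit was repeated after removing dim probe sets (below percentile 40), with an intensity trend, a robust prior, array weights, a replicate block, repeated normalization and other rules for a gene's probe set, and without each array in turn. The same alternatives for genes that are no members, and the counts without 3D replicate 2, were added after seeing the data. Python 3.11.15 and matplotlib 3.10.9 made the plots.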

Additional observations from a re-analysis of the deposited data

How the results depend on the processing

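MMP13 kept its direction under every alternative run, with a log2 difference (3D minus 2D) of 2.11 to 2.46 without single arrays and adjusted p-values of 0.0159 to 0.123, where the call was lost without 3D replicate 1 and without each 2D replicate. The count of members called was 2 with array weights, which added MMP9 at 0.88, and 0 to 1 without single arrays. Over all probe sets, 84 were called (32 higher, 52 lower), 415 with array weights (132 higher, 283 lower), 152 with dim probe sets left out (47 higher, 105 lower), and 0 to 150 without single arrays. The filter on dim probe sets removed MMP1, MMP2, MMP7, MMP10, MMP14 and TIMP3, so they have no value there. Of 129 values of the other 9 members under the alternatives, 126 kept direction and call, 1 (MMP9) passed the threshold and 2 changed sign, TIMP2 to 0.041 without 3D replicate 1 and TIMP3 to -0.11 on its own probe set. Of 393 values of the 31 other named genes, 21 lost and 18 gained the call and 10 changed sign. Without single arrays TIMP2 ranged from -0.24 to 0.041, BSG from -0.12 to 0.28, TIMP4 from -0.016 to 0.21, FOSL1 from -0.19 to 0.15 and RUNX2 from -0.069 to 0.12. With array weights FOSL1 was at 0.0061 and RUNX2 at -0.032. The causes were not tested. Replicate numbers are not said to pair the samples, and deviations of same-numbered arrays correlated at 0.089, 0.374 and 0.223, so pairing was not assumed. Each 3D array correlated best with its own number, but 2D replicate 1 did so with 3D replicate 3 at 0.167. With a replicate block 86 probe sets were called, MMP13 had an adjusted p of 0.0284 and TGFB2 of 0.0309, and no member changed its call. Signal could not be set against background, which limits the folds of dim genes such as MMP13 in 2D.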
